A study of Mus musculus with 62 samples.

Results

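The regions described here are 1010 autosomal sites at which H3K9me3, the trimethylation of lysine 9 of histone H3, was higher in Daxx-KO than in WT haematopoietic stem and progenitor cells (HSPCs) at 3, 8 and 24 weeks post induction (w.p.i.). They were selected by their H3K9me3 values. A site of the 24 w.p.i. comparison was taken when it overlapped, by 1 bp or more, a site of the 3 w.p.i. and a site of the 8 w.p.i. comparison, and when every Daxx-KO value lay above every WT value at all 3 time points. Of the 4193 sites at 24 w.p.i. that overlapped a site of both other comparisons, 1010 (24.1%) met the rule, and 1351 (32.2%) met the same rule in the opposite direction. The 12 comparisons used here list 1595737 autosomal sites in all. The remaining 69577 H3K9me3 gains at 24 w.p.i. serve as the comparison set, and the selected sites are called persistent gains below.

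The data are CUT&Tag libraries, in which an antibody brings a transposase to the histone mark or protein it binds, so that the DNA around it is tagged and sequenced. HSPCs were lineage-negative, c-Kit+ bone marrow cells of C57BL/6 mice, isolated with magnetic beads. Daxx-KO mice were Daxx F/F, with exons 2 to 7 of both Daxx alleles floxed, WT mice were Daxx +/+, DKO mice were floxed for both genes (Daxx F/F and Pu.1 F/F), and all of them were Cre +/-. The methods describe Mx1Cre induced with pI:pC and RosaCreERT2 induced with tamoxifen, and the labels say neither which line a CUT&Tag mouse carried nor its age. For DKO mice the methods give a cross of Pu.1 F/F with Daxx F/F Mx1Cre mice, induced with pI:pC. The floxed Daxx line was made in C57BL/6N, and the Cre lines and the floxed Pu.1 line were C57BL/6J. H3K9me3 was measured in 2 Daxx-KO and 2 WT mice at 3 w.p.i., in 3 and 3 mice at 8 w.p.i. and in 2 and 2 mice at 24 w.p.i., all of them separate animals, 7 per genotype. At 24 w.p.i. the same 4 mice also gave the H3K27me3, H3K27ac, H3.3 and Pu.1 libraries.

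H3K9me3 is written by enzymes such as Setdb1 and Suv39h1 and bound by HP1 proteins, and it marks constitutive heterochromatin, endogenous retroviruses and silenced gene clusters. Daxx is a histone chaperone that, together with Atrx, places the variant histone H3.3 in heterochromatin, a deposition that has been linked to the silencing of repeats. H3K27me3 is the separate repressive mark of Polycomb, H3K27ac marks active promoters and enhancers, and Pu.1 is the transcription factor that drives myeloid and B-cell differentiation.

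Sequences of 5 persistent gains are given because the values below turn on them. The first 4 are the sites with the highest fold that held at all 3 time points, none within 100 kb of another and each with a mean count of at least 10 in Daxx-KO, and the bases are the middle, up to 300 bases, of the stretch shared by the sites of the 3 comparisons. The last is the stretch upstream of the gluconeogenesis gene Fbp2, where a persistent gain covers the start of the gene, which lies on the minus strand. All are from RefSeq, assembly GRCm38 (mm10), on the plus strand, with CpG dinucleotides in capitals. In order they lie at chr17:14213100-14213399, chr6:129189850-129190149, chr17:14428000-14428049, chr13:66947300-66947549 and chr13:62858423-62858672.
Dact2 site: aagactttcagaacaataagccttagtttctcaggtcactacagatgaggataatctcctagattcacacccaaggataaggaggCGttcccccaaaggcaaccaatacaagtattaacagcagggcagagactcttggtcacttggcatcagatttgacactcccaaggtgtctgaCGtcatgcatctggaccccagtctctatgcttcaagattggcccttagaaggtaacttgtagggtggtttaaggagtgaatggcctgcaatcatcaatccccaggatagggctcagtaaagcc
Clec2d site: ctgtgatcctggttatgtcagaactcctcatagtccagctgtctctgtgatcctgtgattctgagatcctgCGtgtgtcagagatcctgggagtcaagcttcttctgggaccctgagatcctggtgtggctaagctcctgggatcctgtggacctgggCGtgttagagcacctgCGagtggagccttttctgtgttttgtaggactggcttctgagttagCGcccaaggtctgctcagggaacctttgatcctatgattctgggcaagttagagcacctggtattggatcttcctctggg
Smoc2 site: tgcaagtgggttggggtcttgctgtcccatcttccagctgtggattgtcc
Ptdss1 site: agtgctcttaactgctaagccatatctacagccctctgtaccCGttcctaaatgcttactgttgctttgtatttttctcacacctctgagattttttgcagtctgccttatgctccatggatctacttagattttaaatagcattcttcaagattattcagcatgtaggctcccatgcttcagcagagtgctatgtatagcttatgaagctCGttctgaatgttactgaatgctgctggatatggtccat
Fbp2 upstream: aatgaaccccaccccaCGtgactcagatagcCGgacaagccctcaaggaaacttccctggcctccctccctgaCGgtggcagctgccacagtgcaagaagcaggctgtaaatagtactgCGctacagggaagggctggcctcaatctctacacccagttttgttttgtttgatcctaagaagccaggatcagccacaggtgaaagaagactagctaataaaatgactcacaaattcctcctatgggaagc
The Dact2 sequence holds 2 CpG, and none of its bases is masked as repeat. The Clec2d sequence, with 4 CpG, is the most repetitive of the 5, with 62.3% of its bases masked.

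Values are the normalized counts deposited for each library, that is, the reads of a site divided by a constant for the library. At 3 w.p.i. the medians over the 1010 sites were 32.6 and 33.3 for Daxx-KO against 8.75 and 9.28 for WT. At 8 w.p.i. they were 35.3, 35.9 and 37.4 against 7.9, 6.75 and 11.2, and at 24 w.p.i. 133 and 134 against 52.1 and 48.3. These medians of the Daxx-KO libraries of a time point thus lay close to each other, while the order of the genotypes is fixed by the rule. Parts of the set differed more, with Daxx-KO medians of 338 and 244 at 24 w.p.i. over the chromosome 17 block described below. No Daxx-KO value was 0, whereas WT values of 0 occurred at between 8 sites (WT replicate 1 at 24 w.p.i.) and 163 sites (WT replicate 2 at 8 w.p.i.). The medians correspond to few reads in WT, between 8 and 16 per site at 3 and 8 w.p.i. and 33.5 and 51.5 at 24 w.p.i., against 20 to 39 and 129 to 209 in Daxx-KO.

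**Figure D1:**
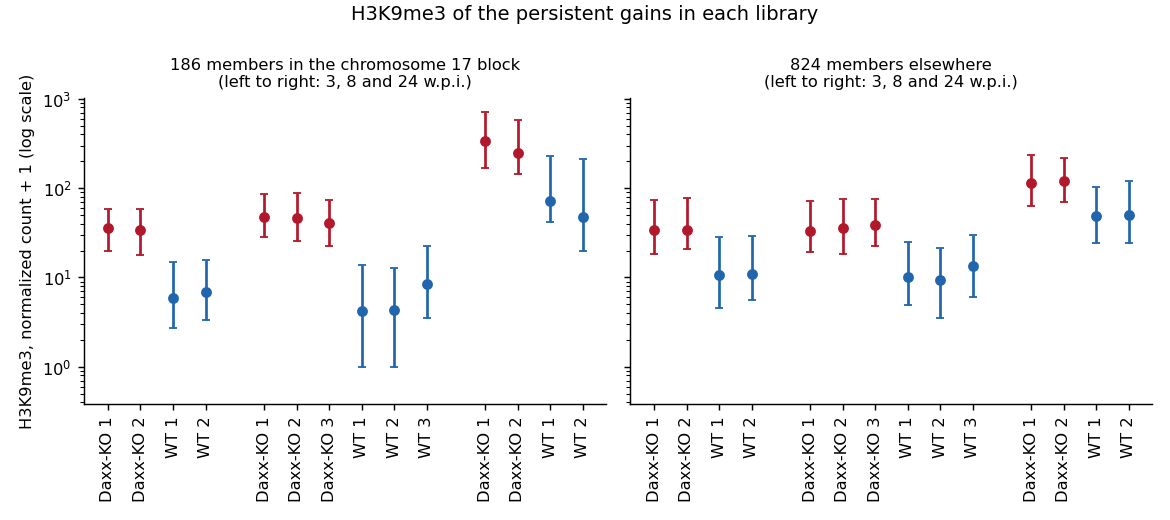
H3K9me3 of the persistent gains in each of the 14 libraries (normalized count + 1, log axis); points are medians over sites, bars the quartiles, left for the 186 sites of the chromosome 17 block and right for the other 824. The Daxx-KO points lie above WT at each time, as the rule sets, and the distance is wider in the block (338 and 244 against 71.5 and 46.9 at 24 w.p.i.) than elsewhere.

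The fold is the log2 ratio of the group means of normalized count + 1, a scale that understates changes at low counts. Its median over the persistent gains was 1.75 at 3 w.p.i., 1.83 at 8 w.p.i. and 1.29 at 24 w.p.i. Over all gains listed at these times it was 2.05, 1.94 and 2.00, while the 824 sites outside the chromosome 17 block had 1.67, 1.76 and 1.20 and the 186 sites in it 2.30, 2.87 and 2.02. The median outside the block thus lay below that of all listed gains, and the median in the block did not. These are values the rule used, in a block defined from them, and the sets were not matched for counts. They describe the selected sites and say nothing on persistence itself. A ratio of 2 or more was reached by 95.9% of the 1010 sites at 3 w.p.i., 94.1% at 8 w.p.i. and 70.3% at 24 w.p.i. With reads rescaled to the mean reads per window, an alternative added after the data had been seen, 558 of the 1010 sites still met the rule, 149 of them in the block, which is described below. Sites with a high fold at an earlier time tended to have a high fold later, with Spearman's rho of 0.61 between 3 and 8 w.p.i., 0.53 between 3 and 24 w.p.i. and 0.54 between 8 and 24 w.p.i. over 1010 sites, and of 0.49, 0.39 and 0.37 over the 824 sites outside the block. These values describe sites that had to be higher in all 3 comparisons and that share their libraries. In each comparison taken alone, sites with all Daxx-KO values higher were 78.6% of the autosomal sites listed at 3 w.p.i., 57.6% at 8 w.p.i. and 46.9% at 24 w.p.i., and sites with all values lower were 21.0%, 31.5% and 50.3%.

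The sites were 600 to 17600 bp long, with a median of 1050 bp, and covered 1506 kb. They are not all separate places, since joining those within 1 kb left 850 regions, within 10 kb 689 and within 1 Mb 359. They were matched to 946 sites of the 3 w.p.i. comparison and 955 sites of the 8 w.p.i. comparison, so that some neighbours share their earlier values. The largest such group was 6 sites at Enpp3, which share 1 site at 3 w.p.i. that is 16900 bp long.

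The persistent gains nearest to the limit of the rule were separated by very little. At a site near Olfr156 (chr4:43803751-43804900) the lowest Daxx-KO value at 8 w.p.i. was 6.33 and the highest WT value 6.32. At a site near Vmn2r83 (chr10:79420001-79420600) the corresponding values at 24 w.p.i. were 243.9 and 243.6. Just beyond the limit, 134 sites failed at 3 w.p.i. alone, 235 at 8 w.p.i. alone and 643 at 24 w.p.i. alone. The closest of them was a site near Fam19a5 (chr15:87919901-87921100), where the lowest Daxx-KO value at 8 w.p.i. was 18.72 and the highest WT value 18.73. When each site was ranked by the smallest of its 3 gaps between the genotypes, as a share of the Daxx-KO mean, the first was a site in the block in an intron of Smoc2 (chr17:14377401-14378800; smallest gap 0.753, at 24 w.p.i.), with 38.9, 38.6 and 56.2 in Daxx-KO and 0 in each of the 3 WT libraries at 8 w.p.i.

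The highest fold that held at all times was found near Dact2, which encodes an inhibitor of TGF-β and Nodal signalling (chr17:14212151-14214550, in an intron of an antisense RNA). Distances to genes are from the middle of a site to the nearest transcript start of a protein-coding gene, here 9046 bp. H3K9me3 was at 66.3 and 60 in Daxx-KO against 7 and 1.74 in WT at 3 w.p.i. At 8 w.p.i. it was at 61.5, 52.4 and 58.8 against 1.58, 1.69 and 2.5, and at 24 w.p.i. at 589.8 and 245 against 46.6 and 20.6. The next was an intergenic site 8985 bp from Clec2d, whose product is a ligand of an inhibitory receptor of natural killer cells (chr6:129188501-129190700). Daxx-KO values at 3, 8 and 24 w.p.i. were 72.1 and 76.7, then 40.7, 25.8 and 24.1, then 136 and 176. WT values did not exceed 20.6 at any of the 3 times, and 2 of the 7 were 0.

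A site between genes near Smoc2, which encodes a secreted calcium-binding matrix protein (chr17:14426551-14428050), was at 0 in all 3 WT libraries at 8 w.p.i. and at 46.1, 34.0 and 24.1 in Daxx-KO. At the same site Daxx-KO was at 39.5 and 45 at 3 w.p.i. and 95.6 and 142 at 24 w.p.i., against 1.75, 6.96, 7.77 and 15.9 in WT. Ptdss1, the phosphatidylserine synthase 1 gene on chromosome 13, had 7 persistent gains within 13.9 kb (chr13:66937751-66951650), with a median log2 fold of 3.8, 2.59 and 2.52. The site of this group with the highest lasting fold (chr13:66946151-66947950, in an intron) was at 67.4 and 71.7 against 1.75 and 5.8 at 3 w.p.i., and at 96.3 and 112 against 24.9 and 0 at 24 w.p.i. Of the 10 sites with the highest lasting fold, none within 100 kb of another, each lay near a different gene, and 8 of them were on chromosome 17.

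Chromosome 17 held 218 persistent gains (21.6%), although it held 4.51% of all H3K9me3 gains at 24 w.p.i. On the other autosomes the share of persistent gains ranged from 0.99% (chromosome 19) to 8.51% (chromosome 4), and without the block chromosome 17 would have held 3.88% of the rest. Of the 218 sites, 186 lay in a single block, which is 3.69 Mb long and is the largest group obtained when members within 1 Mb are joined. The block was singled out after its values had been seen. It ends beyond Smoc2 at a site 100465 bp from Thbs2, which encodes thrombospondin 2. Daxx itself (ENSMUSG00000002307.16, chr17:33909414-33915590) is 19.1 Mb away on the same chromosome. No persistent gain lay within 5 Mb of Daxx, and the nearest was 12 Mb from it.

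**Figure D2:**
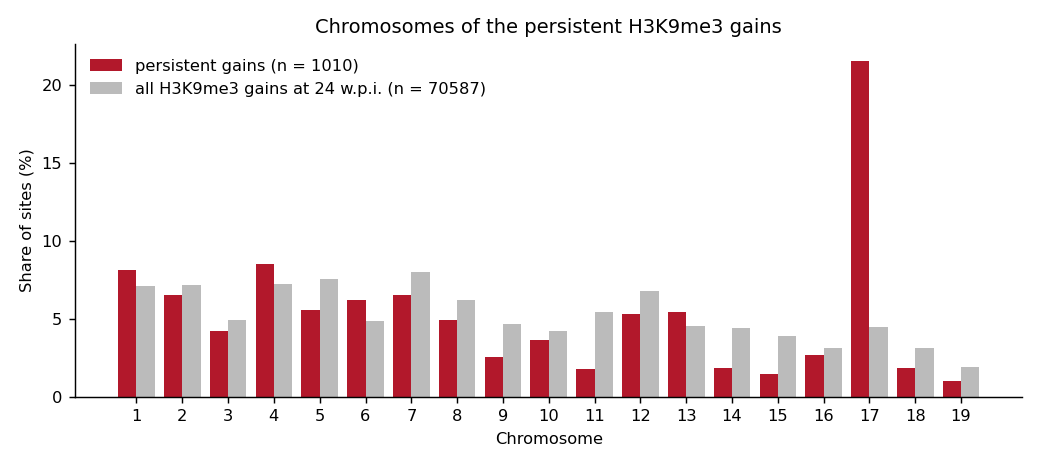
Share (%) of the 1010 persistent gains and of all 70587 H3K9me3 gains at 24 w.p.i. on each autosome. Chromosome 17 holds 21.6% of the persistent gains and 4.51% of all gains.

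Within the block, 3 stretches are described. At Map3k4, which encodes a stress-activated kinase upstream of p38 and JNK, there were 5 persistent gains. The stretch from Sod2, the mitochondrial superoxide dismutase gene, to Tcte2 (chr17:13026251-13582050) held 75. It contains t-complex genes such as Tcp10b and Tcp10c and the sperm motility kinase genes Smok2a and Smok2b. The stretch from Afdn, the afadin gene, to Thbs2 (chr17:13844851-14795150) held 101, of which most were nearest to Smoc2, Dact2 and the predicted genes Gm7356, Gm7358 and Gm7168. The median log2 fold at 3, 8 and 24 w.p.i. was 1.60, 1.74 and 1.20 from Sod2 to Tcte2, and 2.66, 3.52 and 2.41 from Afdn to Thbs2. The Map3k4 sites had 2.90, 4.25 and 2.74. Fold was therefore uneven along the block, with the lower values in its middle.

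These stretches differ in how uniquely reads can be placed. The median share of 50-base words that occur once in the genome was 35.2% over the sites from Sod2 to Tcte2, 99.5% from Afdn to Thbs2 and 98.8% over the persistent gains outside the block. Under 50% unique words were found at 58 of the 75 sites from Sod2 to Tcte2 and at 17 of the 101 from Afdn to Thbs2. The part of read placement in the values of the former stretch was not tested. At the longest Map3k4 site, described next, all 50-base words occurred once (100%).

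At the largest Map3k4 site (chr17:12266951-12274300, 7350 bp, its middle in an intron 4639 bp from a Map3k4 start) H3K9me3 was at 98.8 and 170.0 in Daxx-KO against 17.5 and 16.8 in WT at 3 w.p.i. It was at 574, 471 and 396 against 12.6, 15.2 and 45 at 8 w.p.i., and at 2236 and 1349 against 155 and 201 at 24 w.p.i. At each time the lowest Daxx-KO value was more than 5 times the highest WT value. A second Map3k4 site, in an exon at chr17:12226351-12229350, was at 482 and 389 against 15.5 and 37.5 at 24 w.p.i.

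The block was also examined over every site listed in it, whether or not it was a persistent gain. H3K9me3 was higher in all Daxx-KO libraries at 391 of 411 sites at 3 w.p.i., 414 of 454 at 8 w.p.i. and 591 of 642 at 24 w.p.i., where 78.6%, 57.6% and 46.9% of the whole comparisons were higher, in a block that was itself defined by such sites. H3K27me3 at 24 w.p.i. was lower in both Daxx-KO than in both WT libraries at 522 of 563 sites (92.7%), compared with 61.4% on the rest of chromosome 17, 56.4% on the other autosomes and 56.8% in the whole comparison. The median H3K27me3 over the 563 sites was 16 and 25.8 for Daxx-KO against 77.5 and 68.5 for WT, while over the rest of the chromosome it was 38.3 and 42.3 against 61.6 and 54.3. The difference was present in each of these stretches, with 2 of 2 sites lower at Map3k4, 113 of 113 from Sod2 to Tcte2 and 233 of 236 from Afdn to Thbs2. H3K27me3 was not part of the rule, but it was measured in the same 4 mice as H3K9me3 at 24 w.p.i.

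H3K27ac was lower over most sites of the block as well. At 24 w.p.i. it was lower at 320 of 412 listed sites (77.7%), where the rest of chromosome 17 had 52.2% and the whole comparison 56.0%, with medians of 19.5 and 23.4 for Daxx-KO against 56.4 and 50.2 for WT. At 3 w.p.i., in the mice of the H3K9me3 libraries of that time, it was lower at 213 of 272 (78.3%), where 58.4% of the whole comparison was lower. H3.3 was higher at 314 sites and lower at 336 at 24 w.p.i. (51.3% and 47.0% in the whole comparison). At 3 w.p.i. it was lower at 211 of 428 sites (49.3%), against 28.2% on the rest of chromosome 17 and 41.2% on the other autosomes. This count depended on the depth scale. With rescaled reads H3.3 was lower at 146 of the 428 sites and higher at 208, and lower at 44584 of the 141512 sites of the whole comparison. As deposited, the stretches went different ways at 3 w.p.i., with 74 of 110 sites lower from Afdn to Thbs2 and 92 of 134 higher from Sod2 to Tcte2. Pu.1 at 24 w.p.i. was higher at 275 and lower at 385 sites (46.9% and 51.3% in the whole comparison). At 3 w.p.i. Pu.1 was higher at 247 and lower at 211 of 472 sites (54.1% and 44.0% in the whole comparison), and with rescaled reads at 246 and 135. The block thus combined higher H3K9me3 with lower H3K27me3 and H3K27ac at 24 w.p.i. With rescaled reads, H3K27me3 was still lower at 496 of 563 sites and H3K27ac at 298 of 412, and H3K9me3 was higher at 388, 359 and 504 of the sites at the 3 times.

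**Figure D3:**
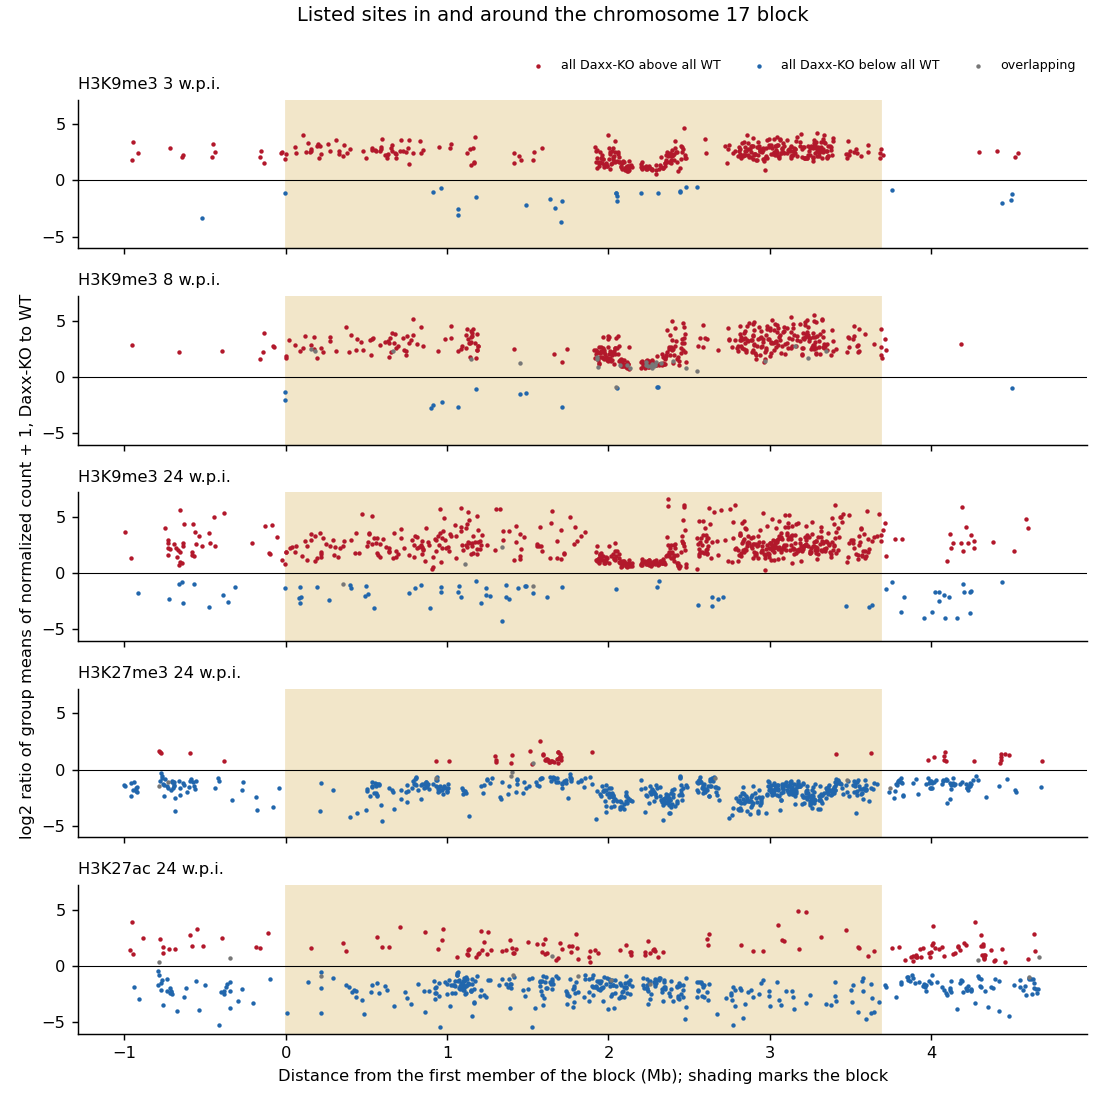
All listed sites in the block (shaded) and 1 Mb on each side, by distance from the first persistent gain in Mb, with the log2 ratio of group means of normalized count + 1 (Daxx-KO to WT); red, blue and grey mark sites with all Daxx-KO values above, all below or overlapping WT. H3K9me3 sites lie almost all above 0 at each time, and 522 of 563 H3K27me3 and 320 of 412 H3K27ac sites lie below 0 with no overlap.

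Over the persistent gains themselves, 124 of the 186 in the block (66.7%, Wilson 95% interval 59.6 to 73.0) overlapped a site with lower H3K27me3 in Daxx-KO at 24 w.p.i. Outside the block this was 67 of 824 (8.13%, 6.45 to 10.2), and among the other H3K9me3 gains at 24 w.p.i. it was 11.2%. A site with higher H3K27me3 was overlapped by 0 of 186 in the block, which allows a share of up to 2.02%, by 8 of 824 outside it and by 6.16% of the other gains. In the whole comparison 40.8% of the listed H3K27me3 sites were higher, a share with another denominator. The overlap shares also count H3K9me3 sites at which no H3K27me3 site is listed, so they cannot be set against it. The intervals cover counting error only, since sites are not replicates and PCR reads are not independent molecules. Longer sites can overlap more sites, and the sets were not matched for length (medians of 1875 bp in the block and 1000 bp outside it). At a persistent gain 229 bp from the start of Gm7356 (chr17:14002851-14004100), H3K27me3 was at 7.98 and 25.8 in Daxx-KO against 159 and 114 in WT, where H3K9me3 was at 143 and 108 against 37.3 and 3.75. Of the 50-base words of this site, 42.2% occur once in the genome. At the Dact2 site described first, the 2 overlapping H3K27me3 sites were at 14.4 and 52.4 against 137 and 103, and at 22.3 and 80 against 150.3 and 136.

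Lower H3K27ac at 24 w.p.i. was found at 61 of 186 persistent gains in the block (32.8%, 26.5 to 39.8) and at 60 of 824 elsewhere (7.28%, 5.70 to 9.26), beside 11.9% of the other gains. Higher H3K27ac was found at 5.91%, 6.92% and 10.7% (41.3% of the whole comparison). At the 7350-bp Map3k4 site, an overlapping H3K27ac site was at 13.5 and 5.85 in Daxx-KO against 127 and 82.3 in WT at 24 w.p.i., and another at 4.84 and 0.85 against 20.4 and 18.8 at 3 w.p.i. Here the mark of active regulatory DNA was lower while H3K9me3 was higher. At 3 w.p.i. lower H3K27ac was seen at 22.6% of the persistent gains in the block, 3.28% of those elsewhere and 6.16% of the other gains. Higher H3K27ac was seen at 3.23%, 4.49% and 3.08%. Of the H3K27ac sites listed in the whole comparison 39.2% were higher, again with another denominator.

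H3.3 and Pu.1 differed in both directions over the persistent gains. H3.3 at 24 w.p.i. was higher at 34.9% and lower at 43% of those in the block, compared with 17.1% and 14.6% outside it and with 14.6% and 14.1% of the other gains. A long site can overlap sites of both directions, and block sites are longer, with a median of 1875 bp against 1000 bp elsewhere. The 7350-bp Map3k4 site had H3.3 at 0 and 4.53 in Daxx-KO against 56.3 and 149 in WT at 24 w.p.i. The second Map3k4 site went the other way, with 116 and 70.2 against 27.7 and 16.9. Of the 12 H3.3 sites listed in the Map3k4 stretch, 8 were higher in Daxx-KO and 4 lower. A persistent gain 239089 bp from Foxo1, whose product guides B-cell development, had H3.3 at 1.1 and 0 against 83 and 37.6, whereas a persistent gain between genes 21641 bp from Gata2 had 92.7 and 135 against 2.77 and 33.8. H3.3 was thus lower at some persistent gains and higher at others.

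Pu.1 at 24 w.p.i. was higher at 36.6% and lower at 47.3% of the persistent gains in the block, at 13.3% and 14.2% outside it, and at 12.8% and 17% of the other gains. At 3 w.p.i. these libraries came from mice that gave no H3K9me3 library, WT replicate 2 excepted, and the WT libraries were uneven in depth (22.9 and 3.06 mean reads per window for H3.3, 33.8 and 2.75 for Pu.1), a part in the values that was not tested. H3.3 was higher at 26.9% of the persistent gains in the block and 9.95% elsewhere, beside 15.3% of the other gains (57.7% of the whole comparison). Pu.1 was higher at 33.9% in the block and 9.95% elsewhere, beside 16.7% (54.1% of the whole comparison). Lower H3.3 was seen at 25.3%, 6.31% and 7.50%, and lower Pu.1 at 28%, 10.8% and 8.68% (40.7% and 44.0% of the whole comparisons). The shares of whole comparisons are of the listed H3.3 or Pu.1 sites. They have another denominator than the overlap shares and cannot be set against them. Outside the block the persistent gains thus had fewer sites with higher H3.3 or Pu.1 at 3 w.p.i. than other gains, a difference that was not tested over mice.

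**Figure D4:**
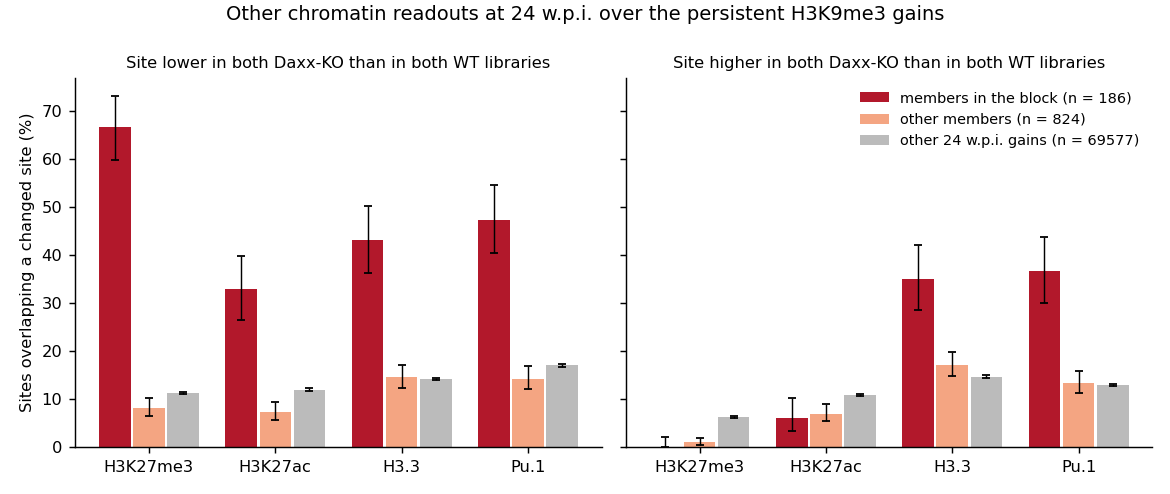
Share (%) of sites that overlap a site lower (left) or higher (right) in both Daxx-KO than in both WT libraries at 24 w.p.i., for the 186 persistent gains in the block, the 824 others and the 69577 other H3K9me3 gains; bars start at 0 and whiskers are Wilson 95% intervals. Lower H3K27me3 stands at 66.7%, 8.13% and 11.2%. The sets were not matched for site length.

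Counting the 4 other readouts at 24 w.p.i. together, 401 persistent gains (39.7%) overlapped a changed site of none of them and 43 overlapped a changed site of all 4, of which 39 lay in the block. The other gains were not counted in this way, and the sites of the block are longer and can overlap more sites. A site 20244 bp from Dact2 (chr17:14182401-14185300) is an example of overlap with all 4, with H3K9me3 at 601 and 264 against 68.4 and 37.5. Its H3K27me3 sites were at 14.4 and 29.4 against 71.9 and 40, and at 19.1 and 37.7 against 91.5 and 77.1, whereas H3K27ac was at 46.5 and 43.9 against 13.4 and 3.16. H3K27ac was thus higher here, unlike at most sites of the block. H3.3 was at 8.83 and 11.3 against 128 and 103, and Pu.1 at 62 and 144 against 2.88 and 6.32.

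In DKO HSPCs H3K9me3 was compared at 8 w.p.i. with the same WT and Daxx-KO libraries that the rule used, so values are given side by side and without a test. The comparison of DKO with WT listed a site at 289 persistent gains, of which 167 were higher in all 3 DKO libraries and 26 lower (47.7% and 17.9% of the whole comparison). The comparison of DKO with Daxx-KO listed a site at 372, of which 263 were lower in all 3 DKO libraries and 42 higher (24.8% and 44.8% of the whole comparison). The split depends on the depth scale. With reads rescaled to the mean reads per window, 52 were higher and 23 lower than WT, and 244 lower and 6 higher than Daxx-KO, and the share of higher among all sites called moved from 72.8% to 53.2% against WT and from 64.4% to 48.9% against Daxx-KO. The DKO libraries had between 0.2 and 3.29 mean reads per window, while the WT and Daxx-KO libraries of these comparisons did not exceed 1.87.

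Within the block the stretches differed in DKO. From Afdn to Thbs2, the comparison with Daxx-KO listed 42 sites, 36 of them lower in DKO and 1 higher. The medians were 0, 0 and 1.46 in DKO and 11.7, 12.5 and 10.4 in Daxx-KO. The medians of 0 came from DKO replicates 1 and 2, the shallowest libraries, and the part of depth in them was not tested. The comparison with WT listed 4 sites there, all of them higher in DKO (medians of 15.1, 20.7 and 13.8 in DKO and 3.15, 1.23 and 3.58 in WT). At Map3k4, 11 of 11 sites listed against Daxx-KO were lower in DKO. Over the 7350-bp site H3K9me3 was at 0, 26.2 and 32.1 in DKO against 275, 237 and 196 in Daxx-KO. The 1 site listed there against WT was lower in DKO, at 38.8, 34.5 and 26.1 against 139, 88.2 and 139. From Sod2 to Tcte2, the comparison with Daxx-KO had 15 sites higher and 11 lower of 48. The comparison with WT had 61 higher and 1 lower of 104, with medians of 21.6, 43.2 and 39.1 in DKO and 13, 10.3 and 17.2 in WT. Over the whole block, 67 of the 125 sites listed against WT were higher in DKO as deposited and 19 after rescaling, while of the 125 listed against Daxx-KO 77 were lower as deposited and 77 after rescaling, counts that need not be the same sites.

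Starts of protein-coding genes were within 1 kb of 41 persistent gains. Besides Ptdss1, Map3k4 and Gm7356, those with the highest lasting fold were at Enpp3, Gm7168, Afdn, BC051019 and Gm7358. Enpp3 encodes the ectoenzyme CD203c of basophils and mast cells, and 6 persistent gains lay over 16 kb of it (chr10:24828751-24844750). At the site 494 bp from its start, H3K9me3 was at 156, 164 and 247 in Daxx-KO against 3.16, 18.6 and 32.5 in WT at 8 w.p.i., and at 141 and 113 against 6.22 and 7.5 at 24 w.p.i. At 3 w.p.i. the Enpp3 sites share a value, 1194 and 1277 against 268 and 249.9. The site at the start of Afdn (chr17:13887551-13889250) was at 54.7 and 28.3 against 8.75 and 3.48 at 3 w.p.i., 32.6, 54.3 and 42.8 against 7.9, 0 and 2.5 at 8 w.p.i., and 252 and 250.1 against 52.9 and 56.2 at 24 w.p.i.

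Fbp2, which encodes the muscle form of the gluconeogenic enzyme fructose-1,6-bisphosphatase, carried a 5000-bp persistent gain that covered the start of the gene and had its middle in an exon, 9 bp from the start of a shorter transcript (chr13:62853801-62858800). H3K9me3 was at 54.7 and 58.3 in Daxx-KO against 14 and 22 in WT at 3 w.p.i., and at 44.3, 46.9 and 29.4 against 3.16, 5.06 and 2.5 at 8 w.p.i. At 24 w.p.i. it was at 2345 and 1614 against 424 and 399. H3K27me3 over the site was at 11.2 and 53.4 in Daxx-KO against 134 and 168 in WT at 24 w.p.i., so that the repressive marks differed in opposite directions here too. Pu.1 was at 0 and 2.09 against 28.8 and 50.5 at 24 w.p.i., and H3K27ac at 7.75 and 10.2 against 0 and 0 at 3 w.p.i.

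Outside the block, the 824 persistent gains had 505 nearest protein-coding genes, and of the 522 nearest genes of all persistent gains 361 had 1 site. The groups below, joined within 100 kb, were picked after their values had been seen. The largest was 22 sites over 310.7 kb of chromosome 4 at CK137956, Csmd2 and Hmgb4 (chr4:127915451-128226150), with a median log2 fold of 1.71, 2.23 and 1.10, and 11 further sites lay before it. Another 11 lay in and around Esrrg, the gene of an orphan nuclear receptor (chr1:187674101-187885900), with 1.5, 1.79 and 1.07. At the cluster of natural killer receptor ligand genes Clec2e and Clec2d (chr6:129082301-129235400) 10 sites had 2.2, 1.8 and 1.6, and 5 of the 10 overlapped lower H3K27ac at 24 w.p.i. At Resf1, whose product works with Setdb1 in silencing retroelements, and the neighbouring Bicd1, 7 sites had 1.47, 1.77 and 1.74. Unlike the block, these 5 groups held at most 2 sites each that overlapped lower H3K27me3.

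By position, 58.8% of the persistent gains had their middle between genes, 38% in an intron and 3.17% in an exon, compared with 46.7%, 44.2% and 9.06% of the other gains at 24 w.p.i. A start of any annotated gene lay within 1 kb of 91 (9.01%), with 17.7% in the block, 7.04% outside it and 13% of the other gains. Outside the block the persistent gains were thus somewhat further from gene starts than other gains. The median distance to the nearest protein-coding start was 67338 bp outside the block and 25131.5 bp in it, compared with 34077 bp for the other gains.

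The sequence of the persistent gains held few CpG. The median was 0.86 CpG per 100 bases, near the 1 of the other gains and below the 1.84 of the 1351 sites that lost H3K9me3 at all 3 times. At least 2 CpG per 100 bases were found in 5.25%, beside 15.6% of the other gains and 46.2% of the persistent losses. Repeat-masked sequence made up 50% or more of 22.4% of the persistent gains, 5.38% in the block and 26.2% outside it, compared with 20.4% of the other gains and 56.3% of the persistent losses. Persistent losses thus lay in repeats far more often than persistent gains, a description over sites of the same libraries. Under 50% unique 50-base words were found at 684 of the 1351 persistent losses (50.6%) and at 139 of the 1010 persistent gains (13.8%). The median shares of unique words were 48.4% and 98%. The part of read placement in this difference was not tested. The GC content had a median of 46% in both sets.

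**Figure D5:**
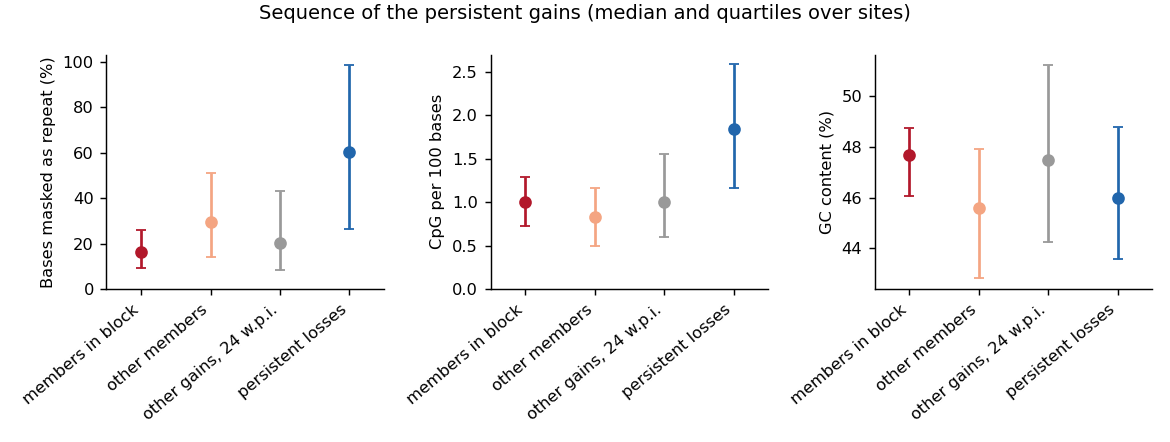
Median and quartiles over sites of the share of masked bases (%), CpG per 100 bases and GC content (%; this axis does not start at 0) for the persistent gains in and outside the block, the other gains at 24 w.p.i. and the persistent losses. Persistent losses stand highest in masked bases (median 60.3%) and CpG (1.84), and the block lowest in masked bases (16.5%).

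Gene families that H3K9me3 covers in many tissues made up a small share of the nearest genes. Zinc-finger genes, many of which encode repressors that bring H3K9me3 to retroelements, were nearest to 22 persistent gains (2.18%, and 1.83% of the other gains), all outside the block. The highest lasting fold among them was 43356 bp from Zfp664 (chr5:124927451-124928400), with 59.3 and 56.3 in Daxx-KO against 15.5 and 1.87 in WT at 24 w.p.i. Olfactory receptor genes were nearest to 10 (0.99%, and 0.877%), vomeronasal receptor genes to 10 (0.99%, and 0.785%) and protocadherin genes to 3 (0.297%, and 0.558%). These shares were low in both sets.

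Of 43 genes of haematopoietic transcription factors, only Gata2, which maintains stem cells, was nearest to a persistent gain, at chr6:88171851-88172650. H3K9me3 there was at 33.7 and 48.3 against 10.5 and 16.2 at 3 w.p.i., 37.1, 47.8 and 33.4 against 11.9, 6.75 and 7.49 at 8 w.p.i., and 103 and 85.5 against 70 and 47.8 at 24 w.p.i. Of 12 B-lineage genes it was Foxo1, of 23 imprinted genes Dlk1 and of 2 gluconeogenesis genes Fbp2, each with 1 site. Among the 69577 other gains, 305 were nearest to a gene of the haematopoietic list (0.438%, against 0.099% of the persistent gains), 43 to a B-lineage gene, 191 to an imprinted gene and 3 to a gluconeogenesis gene. Of 26 genes of H3K9 methylation and repeat silencing, a list that did not hold Resf1, 14 neutrophil genes and 17 genes of interferon and nucleic-acid sensing, none was nearest to a persistent gain, where 76, 27 and 11 of the 69577 other gains were. The counts are small, and being the nearest gene does not tie a site to that gene.

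The labels were checked at Daxx. At 24 w.p.i. H3K27ac inside the gene (chr17:33909801-33913400) was at 113 and 93.7 in Daxx-KO against 858 and 368 in WT, and a Pu.1 site (chr17:33912801-33913750) was at 0 in both Daxx-KO libraries against 63.3 and 44.2. At 3 w.p.i. H3K27ac inside the gene (chr17:33909601-33911450) was at 24.2 and 13.6 against 65.6 and 105. H3K27ac sites that overlap the ends of the gene went the other way, with 1875 and 1617 in Daxx-KO against 712 and 914 in WT (chr17:33914651-33916950) and 1570 and 1036 against 775 and 581 (chr17:33908401-33909500) at 24 w.p.i., and with 33.9 and 56.1 against 2.15 and 15.5 at 3 w.p.i. (chr17:33915201-33915850). The same held for H3.3 at 3 w.p.i. (chr17:33909151-33910200), with 82.9 and 122 in Daxx-KO against 40.7 and 21 in WT. Pu.1 at 3 w.p.i. (chr17:33909201-33909900) was at 59.9 and 103 against 32.4 and 28.8. No other H3.3 or Pu.1 site was listed at Daxx at 3 w.p.i., so a loss inside the gene was not checked in these libraries. No H3K9me3 site was listed at Daxx, so the 8 w.p.i. and DKO libraries were not checked. Since only sites that differ are listed, markers of HSPCs have no level in these data, and fewer cells with a mark cannot be told apart from less of the mark per cell. With 2 against 2 mice, an exact permutation test at a site outside the rule cannot give a p below 0.333, and with 3 against 3 none below 0.1, so no test over mice was made.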

How the data were processed

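CUT&Tag libraries of 62 samples were compared by the authors in 15 tables, of which 12 were used. The submitters' processing notes name CASAVA 1.8.4, cutadapt 1.13, STAR 2.5.3, bedtools and the mm10 build, without their roles. Per the file headers, diffReps 1.55.6 tested windows of 600 bp in steps of 50 bp (fragment size 100 bp, negative binomial test, cutoff p = 0.0001), and only sites that passed are listed. The deposited values are counts of each library divided by a normalization constant, and mean reads per window (for H3K9me3, 1.11 to 9.11 in the WT and Daxx-KO libraries of the 3 comparisons and 0.2 to 3.29 in DKO) give the depth. The deposited fold and p-value columns were not used, and the X and Y chromosomes were left out.

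Sites were joined by an overlap of 1 bp or more, and a change was called where all values of a group lay beyond all values of the other. The members and gene lists were chosen with earlier results of these data known. Sites named in the text are, by rule, the 10 with the highest lowest log2 fold (mean count of at least 10, none within 100 kb of another), the 10 first within 1 kb of a protein-coding start, up to 3 per gene list, the 3 with the smallest and the 3 with the largest gap between genotypes, up to 5 with most other marks changed, and the 6 largest groups within 10 kb. Genes are from GENCODE M21 and sequence and masking from RefSeq GRCm38. Wilson 95% intervals cover counting error only. All 7 functions passed on simulated data. Python 3.11.15, numpy 2.4.6, pandas 2.3.3, scipy 1.17.1, matplotlib 3.10.9, pysam 0.24.0 and samtools 1.23.1 were used. Alternatives were another overlap, pseudocount, window and masking limit, each replicate left out, the block left out and rescaled depth. A stretch of the chromosome 17 block and the sequence of a named site are not reported here.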

Additional observations from a re-analysis of the deposited data

Results flagged for a closer look

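Some persistent gains overlapped a site of another mark that was higher in all Daxx-KO libraries at one time point and a site that was lower in all of them at the other. They are listed for these opposite directions in separate mice, which were neither tested nor counted over the other gains. For H3.3 and Pu.1 opposite directions were about as frequent as like directions. H3K27ac was higher at 3 w.p.i. and lower at 24 w.p.i. at 5 persistent gains, and lower then higher at 7, whereas it was lower at both times at 38 and higher at both times at 11. H3.3 was higher then lower at 52 and lower then higher at 29, beside 48 that were higher and 40 that were lower at both times. Pu.1 was higher then lower at 57 and lower then higher at 41, beside 53 and 44 with the same direction at both times. The block held 31 of the 52 and 19 of the 29 for H3.3, and 42 of the 57 and 23 of the 41 for Pu.1. Its longer sites can overlap sites of both directions. The overlapping sites of the 2 times need not share bases, and a persistent gain can be counted more than once.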

How the results depend on the processing

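No paired analysis was possible because the values come from no test and the time points and genotypes share no mice. The number of persistent gains, 1010, became 578 with an overlap of 50% of the shorter site, 2568 with sites within 1 kb, 5414 without the 3 w.p.i. and 3869 without the 8 w.p.i. comparison, and 578 with reads rescaled to the mean reads per window, of which 558 were among the 1010. It was 1011 to 1061 without 1 replicate, where the rule lets the number only stay or rise. The ratio of persistent gains to losses, 0.748, became 0.640 with the 50% overlap and 0.611 without the block. The median log2 fold at 3, 8 and 24 w.p.i. became 1.32, 1.41 and 1.20 with a pseudocount of 5, 1.53 and 1.65 at 3 and 8 w.p.i. with rescaling, and 1.68 and 1.20 at 3 and 24 w.p.i. without the block, and it ranged over 1.66 to 1.77, 1.71 to 2.00 and 1.23 to 1.32 without 1 replicate. Persistent gains near a transcript start were 15.9% within 3 kb and 7.04% without the block. Masked sites were 8.02% at a limit of 80% and 26.2% without the block. Lower H3K27me3 was at 16.5% with the 50% overlap and 8.13% without the block, and lower H3.3 at 14.9% and 14.6%. Persistent gains higher in DKO than in WT were 52 after rescaling. Leaving out the block, rescaling and asking for unique sequence were chosen after seeing the data. Rescaling moved the median log2 ratio over all sites by -0.20, -0.18 and 0.01 for H3K9me3 at 3, 8 and 24 w.p.i., by 0.32, 0.54, 0.16 and 0.15 for H3K27me3, H3K27ac, H3.3 and Pu.1 at 24 w.p.i., by 0.21, 0.47 and 0.37 for H3K27ac, H3.3 and Pu.1 at 3 w.p.i., and by -0.52 and -0.30 for DKO against WT and Daxx-KO. Of 67 alternatives, 37 stayed within the limit set. It was 1.5 times for a count, the Wilson interval for a share or the ratio, and the spread between replicates for a fold. Counts, shares and the ratio cannot turn a direction, and the folds are of sites chosen to be higher. That 0 alternatives turned a direction is therefore no measure of stability. Few reads per site at 3 and 8 w.p.i. limit the values in WT.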
